A study of Homo sapiens with 6 samples.

Results

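The 83 genes described here are the ZNF genes on the short arm of human chromosome 19. They were chosen by name and position alone, as rows of the count table with the symbol ZNF followed by a number, on chromosome 19, with a start below 26 Mb, out of 78932 genes in the table. No expression value entered the choice. The cells were T24, an established urothelial (bladder) carcinoma line, transfected with a non-targeting siRNA (siNC, n = 3) or with siRNA against TRIM28 (siTRIM28, n = 3), and the poly(A) RNA of each biological replicate was sequenced. All 6 libraries carry the same batch label. Which of the siRNAs against TRIM28 was used for these libraries, and for how long, is not given in the sources used here, and all libraries come from 1 cell line.

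Most ZNF genes of chromosome 19 encode proteins with a KRAB domain followed by a row of C2H2 zinc fingers. The fingers bind DNA, often within retrotransposons, and the KRAB domain recruits TRIM28 (KAP1), a scaffold that brings the histone methyltransferase SETDB1 and HP1 proteins to the bound site. These genes lie in clusters that arose by tandem duplication, and their own bodies are known in other cells to carry TRIM28 and the repressive mark H3K9me3. The measurement made here was the RNA level of each gene with and without TRIM28 silencing; neither binding nor chromatin was measured.

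Along the arm the 83 genes fell into 5 positional clusters (GRCh38), with a new cluster begun at each gap of more than 1 Mb. Cluster 1 (chr19:2819868-2944971) held 5 genes, cluster 2 (chr19:7069703-9793180) held 15, cluster 3 (chr19:11483427-12640098) held 25, cluster 4 was ZNF333 alone (chr19:14689801-14733746), and cluster 5 (chr19:19668796-24129961), next to the centromere, held 37. In the GENCODE coding sequences, a pattern for the KRAB A box was found in 75 of the 83. The number of C2H2 fingers had a median of 12 and ranged from 0 (ZNF738, whose annotated coding sequence holds the KRAB box only) to 36 (ZNF208). Among ZNF genes of other chromosomes the pattern was found in 91 of 236, with a median of 8 fingers.

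RefSeq promoters (GRCh38.p14, from 250 bases before to 50 bases after the start) matched 73 of the 83 genes by symbol. Those of 3 cluster 5 genes are shown because the genes have related promoters and yet differed in response: ZNF726 (chr19:23914636-23914935, plus strand) and ZNF708 (chr19:21329361-21329660, minus strand) rose in siTRIM28, and ZNF91 (chr19:23395422-23395721, minus strand) was not past the threshold. Their layouts are not the same: ZNF726 holds 2 CCAAT boxes, and ZNF708 and ZNF91 hold 1 each, at different places. The promoter of ZNF564 in cluster 3 (chr19:12551433-12551732, minus strand) is shown as that of a gene that fell. Capitals mark the CCAAT box and the ETS core CCGGAA on either strand (ATTGG and TTCCGG when reversed).
ZNF726: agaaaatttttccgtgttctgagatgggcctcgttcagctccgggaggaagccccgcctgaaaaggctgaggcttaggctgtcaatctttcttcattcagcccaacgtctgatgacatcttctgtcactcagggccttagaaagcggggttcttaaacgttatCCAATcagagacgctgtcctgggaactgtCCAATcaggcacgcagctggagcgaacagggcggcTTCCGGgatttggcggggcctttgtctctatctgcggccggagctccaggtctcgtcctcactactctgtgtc
ZNF708: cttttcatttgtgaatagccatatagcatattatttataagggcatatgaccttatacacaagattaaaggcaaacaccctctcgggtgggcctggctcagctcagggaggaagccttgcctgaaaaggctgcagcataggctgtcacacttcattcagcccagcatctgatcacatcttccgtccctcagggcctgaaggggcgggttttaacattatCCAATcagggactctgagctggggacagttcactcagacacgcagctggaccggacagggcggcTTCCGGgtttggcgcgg
ZNF91: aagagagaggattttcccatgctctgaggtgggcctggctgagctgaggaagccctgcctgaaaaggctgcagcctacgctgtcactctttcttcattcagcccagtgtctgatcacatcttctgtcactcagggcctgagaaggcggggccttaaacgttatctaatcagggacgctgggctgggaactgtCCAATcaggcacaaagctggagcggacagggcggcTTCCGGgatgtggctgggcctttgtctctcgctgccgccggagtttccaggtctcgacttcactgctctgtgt
ZNF564: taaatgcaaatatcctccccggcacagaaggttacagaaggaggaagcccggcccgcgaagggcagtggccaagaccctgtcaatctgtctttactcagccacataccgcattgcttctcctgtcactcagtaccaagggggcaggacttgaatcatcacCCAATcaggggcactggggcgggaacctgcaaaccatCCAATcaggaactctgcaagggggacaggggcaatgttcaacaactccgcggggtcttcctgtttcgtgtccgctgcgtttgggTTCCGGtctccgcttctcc

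The promoters of ZNF726 and ZNF91 were identical at 87.4% of aligned bases, and those of ZNF708 and ZNF91 at 83.4%. CCAAT occurred in 29 of 29 cluster 5 promoters, in 22 of 24 of cluster 3 and in 4 of 14 of cluster 2, against 35.7% of all 27305 promoters in the table. CCGGAA occurred in 23 of 29 in cluster 5, against 17.6% of all. A 12-base run, CTGTCACTCAGG (searched on both strands, overlapping neither motif), was picked after these promoters had been read. It was taken as the run held by the most cluster 5 promoters, so a high count in cluster 5 was fixed by the choice. This run occurred in 18 of 29 in cluster 5, in 5 of 24 in cluster 3 and in 37 promoters of the whole table (0.136%). It is present in lower case in the ZNF726 and ZNF91 sequences above. Within cluster 5, CCAAT was in 9 of 9 promoters of genes that rose and in 16 of 16 of tested genes that did not pass, CCGGAA in 8 of 9 and 11 of 16, and the 12-base run in 4 of 9 and 11 of 16, with no test of these differences. For 63 of the 73 matched genes the RefSeq start lay within 300 bases of the gene's start in the count table. Those further off include ZNF254 and ZNF43, which rose, and ZNF429 and ZNF730, which did not pass. Theirs may not be the promoters of the counted RNA. For the 83 genes the promoter nearest the gene's start was taken, and for the whole table the first entry of each gene. A match is a description of the letters and not evidence of binding.

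Next to each other in cluster 2, ZNF121 (chr19:9584455-9584754, minus strand) and ZNF561 (chr19:9621183-9621482, minus strand) have related promoters, identical at 79.8% of 267 aligned bases, and changed in opposite directions. They are shown for that contrast.
ZNF121: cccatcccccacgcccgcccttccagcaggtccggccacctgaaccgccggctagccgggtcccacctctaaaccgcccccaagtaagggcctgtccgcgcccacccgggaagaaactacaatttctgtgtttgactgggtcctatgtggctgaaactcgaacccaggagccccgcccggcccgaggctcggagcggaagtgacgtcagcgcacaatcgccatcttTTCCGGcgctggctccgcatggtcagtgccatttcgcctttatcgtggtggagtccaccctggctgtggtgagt
ZNF561: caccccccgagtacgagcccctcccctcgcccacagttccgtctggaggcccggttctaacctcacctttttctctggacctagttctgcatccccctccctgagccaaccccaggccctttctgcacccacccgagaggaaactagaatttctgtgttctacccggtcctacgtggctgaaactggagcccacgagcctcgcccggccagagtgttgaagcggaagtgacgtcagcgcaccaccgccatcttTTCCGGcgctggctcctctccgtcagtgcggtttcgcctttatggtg

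TRIM28 itself (chr19:58544064-58550649, on the long arm) was checked first. Its counts were 1419, 1393 and 1382 in siNC and 130, 96 and 109 in siTRIM28, a fall from 104 ± 4.09 to 8.87 ± 0.658 CPM (SD, n = 3 each). The log2 fold change was -3.54 (SE 0.0723, edgeR adjusted p = 1.03e-10). In these bulk samples fewer cells of a kind and less RNA per cell cannot be told apart. Here and below, CPM is the count scaled to the TMM-adjusted library size, a log2 fold change is siTRIM28 over siNC, and a gene is called higher or lower when edgeR's quasi-likelihood test gives a Benjamini-Hochberg adjusted p under 0.05 over all 18474 genes tested.

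Library totals ran from 11712623 to 14018052 counts. Mitochondrial genes took 4.95 to 5.29% of counts in siNC and 5.72 to 6.29% in siTRIM28, and the part of this difference in the results was not tested. Replicates were unevenly close: over 20647 to 21037 genes a pair, the chi-square per degree of freedom was 1.08 between siNC 1 and siNC 2 and 4.17 to 4.22 between either and siNC 3, and it was 1.22 between siTRIM28 2 and 3 and 5.65 to 6.25 between either and siTRIM28 1. Although the labels call every library a biological replicate, each close pair may be technical repeats of 1 sample. The SDs, SEs and p-values below, given with n = 3, may then rest on 2 independent samples per group. The close pairs were kept as separate libraries, and counts obtained with each pair summed into 1 sample are given beside the main ones. Of the urothelial markers, KRT8 (104 CPM in siNC) and KRT18 (86.1 CPM) were abundant and KRT7 was at 2.84 CPM, while UPK1B and KRT20 were at 0 counts in every library. Of the 12 urothelial markers 5 were tested, and 4 were higher in siTRIM28 (UPK1A, KRT7, KRT8 and TP63). Over all tested genes 21.3% were higher. The log2 fold change of KRT8 was only 0.14, and TP63 lay at the threshold on 4 to 15 counts. TP63 had 9, 4 and 6 counts in siNC and 11, 15 and 10 in siTRIM28. It met the filter only through siTRIM28, the group where it was high, so it adds no support to the 4. GATA3, under the filter, went the other way, with 10, 10 and 4 counts in siNC and 1, 4 and 4 in siTRIM28. Of 9 markers of other cells none passed the filter, and the endothelial CDH5 and the T cell marker CD3E were at 0.

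Of the 83 ZNF genes, 64 passed the filter of at least 10 counts in at least 3 libraries. They were low: the mean count per library had a median of 53 (range 9.17 to 256), against 136 over all tested genes, and the siNC level per length had a median of 0.682 CPM per kb, against 2.72 over all tested genes and 1.28 over the other tested ZNF genes. Of the 64, 14 (21.9%) were higher and 7 (10.9%) lower in siTRIM28, and 43 did not pass the threshold. ZNF554, among the 7, met the filter only through siNC. Over all tested genes 21.3% were higher and 20.5% lower, and over the 11539 tested genes whose mean count lay in the same range 18.5% were higher and 14.5% lower. No test of the ZNF genes against these backgrounds was made. The median log2 fold change was 0.12, against 0.02 over all tested genes, and 45 of 64 values were above 0.

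With a log2 fold change of at least 0.58 also required, 9 were higher and 6 lower, against 9.51% and 7.51% of all tested genes. The 3 siTRIM28 libraries lay wholly above the 3 siNC libraries for 17 genes and wholly below for 9, where 26.3% and 25.7% of all tested genes did so. With the close pairs summed, 8 rose and 7 fell, while over all genes the calls dropped from 3944 to 2674 higher and from 3779 to 3156 lower. With DESeq2 7 rose and 5 fell, and over all genes 2884 and 2994. Without siNC 3 the counts were 11 and 6, and without siTRIM28 1 they were 15 and 7. Without siNC 1, siNC 2 or siTRIM28 2 the higher count was 9.

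**Figure D1:**
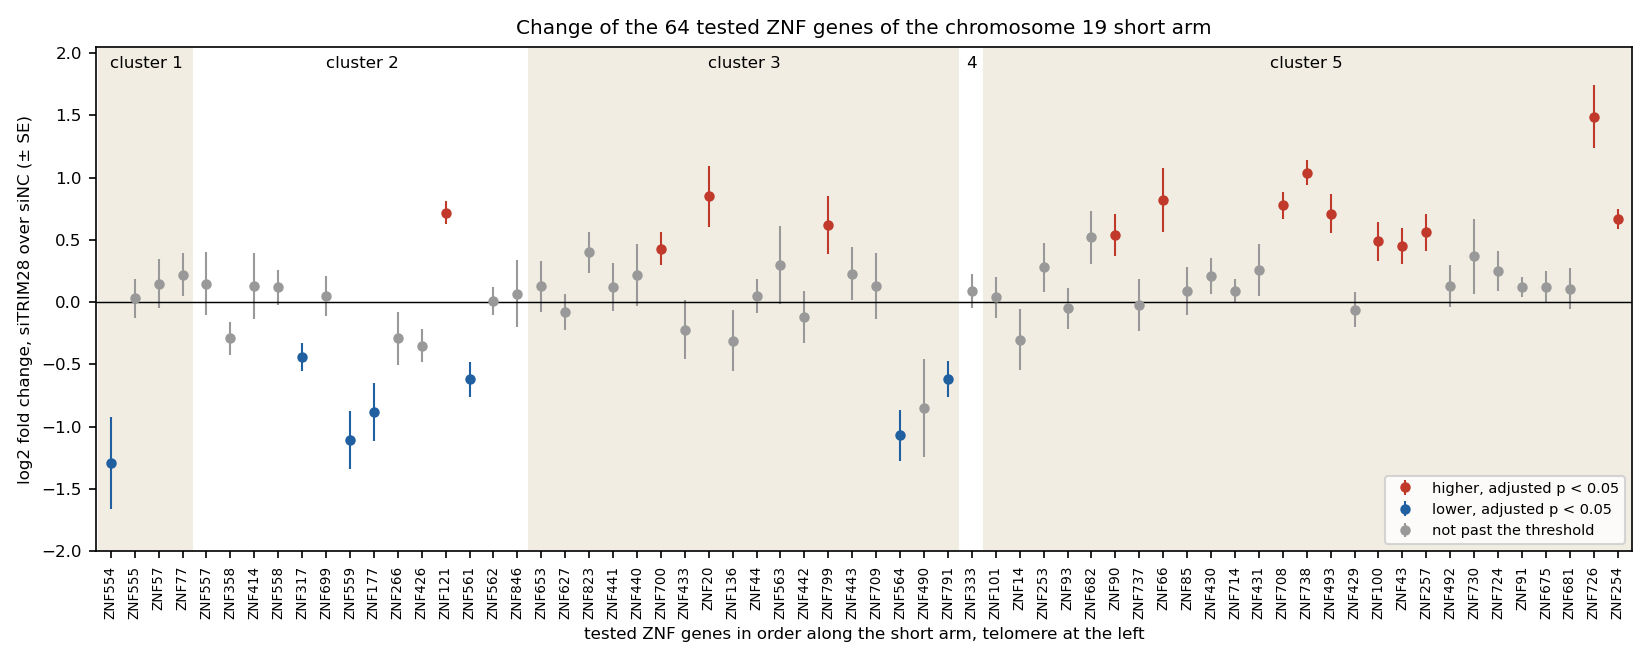
Log2 fold change (y axis, siTRIM28 over siNC, bars ± SE) of the 64 tested ZNF genes in order along the short arm (x axis), shaded by cluster; red and blue points passed the threshold upward and downward and grey points did not. Of the 27 cluster 5 genes, 10 are red and none is blue, while cluster 2 has 1 red and 4 blue points.

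The clusters are given in turn, beside the 21.3% higher and 20.5% lower of all tested genes. In cluster 5, 10 of 27 tested genes rose (37%) and 0 fell, and 23 of 27 fold changes were above 0, with a median of 0.26 and a range from -0.30 to 1.49. By edgeR, DESeq2 and limma-voom alike the number called lower was 0, and it was also 0 at an unadjusted p under 0.05. In cluster 2, 1 of 14 rose (7.14%) and 4 fell (28.6%), with a median of -0.14. In cluster 3, 3 of 18 rose (16.7%) and 2 fell (11.1%), with a median of 0.12. Cluster 1 had 4 tested genes, of which 1 fell (ZNF554, in the filter only through siNC), and ZNF333 did not pass (0.09, SE 0.139, edgeR adjusted p = 0.652). With the close pairs summed or with DESeq2 the count for cluster 5 was 6 higher, without siNC 1 or siTRIM28 2 it was again 6, and over all alternatives the median ran from 0.20 to 0.30. The difference between clusters was not tested, since neighbouring genes are not independent.

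**Figure D2:**
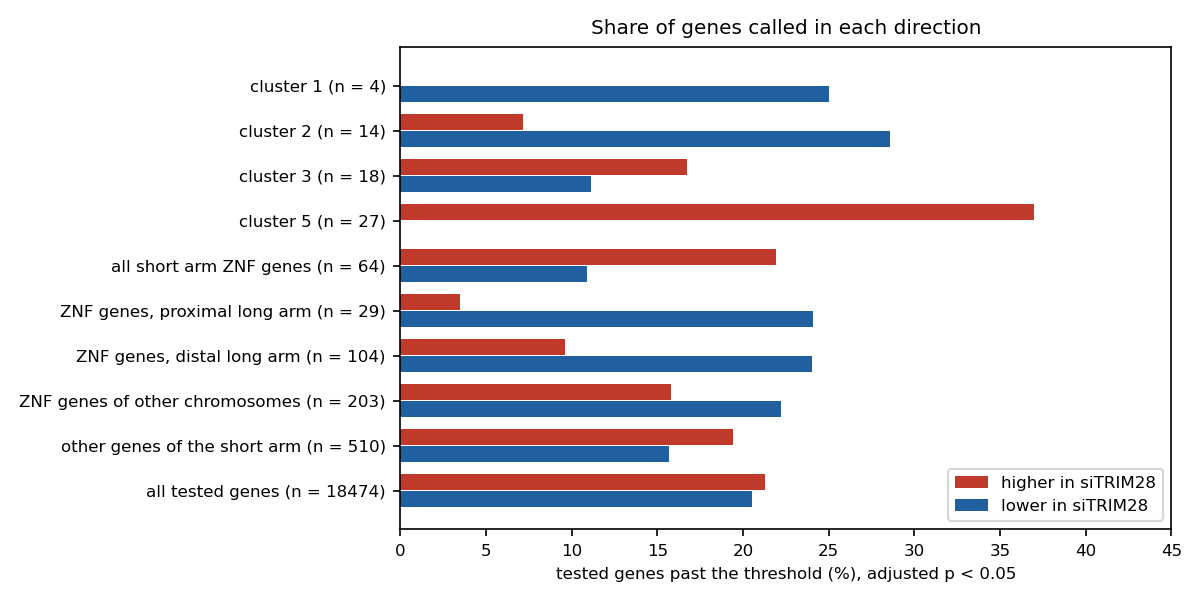
Percentage of tested genes called higher (red) or lower (blue) in siTRIM28 (x axis), for clusters 1, 2, 3 and 5, all short arm ZNF genes, other ZNF genes, other short arm genes and all tested genes (y axis, n tested in brackets; cluster 4 is a single gene and is left out). Cluster 5 has 37% higher and no gene lower. Of the long arm ZNF genes, proximal and distal, 24.1% and 24% are lower and 3.45% and 9.62% higher. Over all tested genes 20.5% are lower and 21.3% higher.

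ZNF genes elsewhere were more often called lower than higher. Over all tested genes 21.3% were higher and 20.5% lower. On the proximal long arm (start below 40 Mb), across the centromere from cluster 5, 1 of 29 tested rose (3.45%) and 7 fell (24.1%). The median there was -0.30. On the distal long arm 10 of 104 rose (9.62%) and 25 fell (24%), with a median of -0.16. On other chromosomes 32 of 203 rose (15.8%) and 45 fell (22.2%), with a median of -0.08. In these ZNF lists the share that fell was near that of all tested genes, and the share that rose was below the 21.3%. Of 510 other short arm genes, 99 rose (19.4%) and 80 fell (15.7%), with a median of 0.03. Inside the span of cluster 5, 14 genes that are not numbered ZNF genes were tested. Of these 2 rose (14.3%) and 0 fell, and the median of the 14 was 0.14. ENSG00000269289, among the 2, met the filter only through siTRIM28. These lists are set side by side as descriptions, without a test of one against another.

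The summed level of cluster 5 separated the groups. It was 124.5, 124.7 and 135.7 CPM in siNC and 159.3, 174.4 and 171.3 CPM in siTRIM28, or 128.3 ± 6.43 against 168.3 ± 7.96 (SD, n = 3). Every siTRIM28 library was above every siNC library. In cluster 2 the sums were 94.46, 92.02 and 90.40 CPM in siNC and 82.41, 88.42 and 84.62 CPM in siTRIM28, all siTRIM28 libraries being lower. In cluster 3 the groups overlapped, at 60.45 ± 1.97 and 61.15 ± 1.55 CPM. The medians of cluster 5 were close in the 3 siTRIM28 libraries, of which 2 and 3 may be technical repeats. Those of cluster 1 (0.02, 0.14 and -0.02 log2 CPM from the siNC mean) and cluster 4 (-0.21, 0.15 and 0.30, ZNF333 alone) changed sign. Single genes such as ZNF737, ZNF85 and ZNF414 also differed in sign between these libraries. Measured from the siNC mean, the median log2 CPM difference over the 27 cluster 5 genes was 0.27, 0.28 and 0.29, and -0.04, -0.03 and 0.06 in the siNC libraries. In cluster 2 it was -0.07, -0.13 and -0.15 in siTRIM28 and 0.07, 0.01 and -0.04 in siNC.

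**Figure D3:**
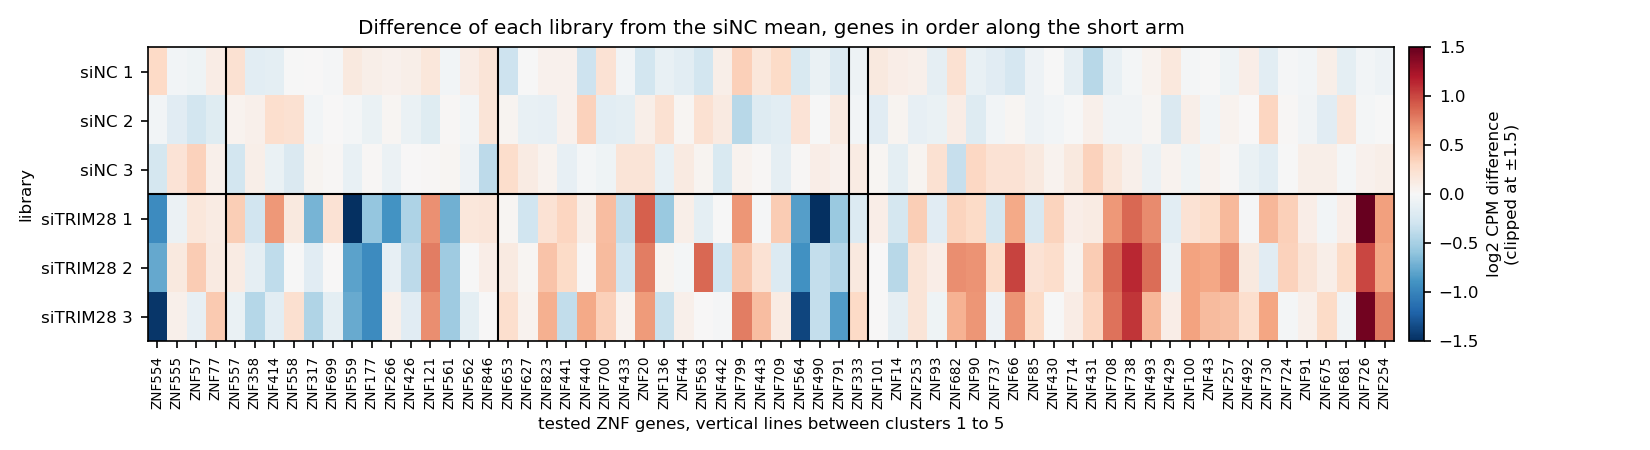
Colour gives the log2 CPM difference of each library (y axis) from the mean of the siNC libraries for the 64 tested ZNF genes in order along the short arm (x axis), red above and blue below, clipped at ±1.5. In the siTRIM28 rows red predominates in cluster 5, where the library medians are 0.27, 0.28 and 0.29.

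Within cluster 5 the genes that rose included a neighbouring trio. ZNF708 (ENSG00000182141, chr19:21284033-21329410), ZNF738 (ENSG00000172687, chr19:21358930-21388582) and ZNF493 (ENSG00000196268, chr19:21397119-21427163) are adjacent among the 83 and all encode a KRAB box. ZNF738 had 103, 101 and 102 counts in siNC and 195, 199 and 190 in siTRIM28. Its level rose from 7.57 ± 0.375 to 15.6 ± 1.49 CPM (log2 fold change 1.04, SE 0.0998, edgeR adjusted p = 7.67e-06). ZNF708 had 97, 101 and 109 counts in siNC and 168, 164 and 159 in siTRIM28, a log2 fold change of 0.78 (SE 0.108, edgeR adjusted p = 0.000127). The groups were far apart for both genes. ZNF493 had 47, 46 and 39 counts against 76, 70 and 55 (0.71, SE 0.157, edgeR adjusted p = 0.00349), and ZNF429, the next tested gene toward the centromere, had 103, 79 and 88 against 83, 74 and 84 and did not pass (-0.06, SE 0.141).

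At the centromere end of cluster 5 stood the genes with the highest level and with the largest rise. ZNF254 (ENSG00000213096, chr19:24033405-24129961), the cluster's gene of highest siNC level per length (1.79 CPM per kb), had 179, 188 and 185 counts in siNC and 295, 243 and 279 in siTRIM28. It rose from 13.7 ± 0.811 to 21.7 ± 1.62 CPM (0.67, SE 0.0794, edgeR adjusted p = 4.01e-05). ZNF726 (ENSG00000213967, chr19:23914876-23945159), the tested gene before it, was low, with 12 counts in each siNC library and 40, 23 and 32 in siTRIM28. Its log2 fold change of 1.49 (SE 0.251, edgeR adjusted p = 0.000548) was the largest among the 64, and rests on few reads. A gene that overlaps it in part on the opposite strand, ENSG00000269289, had 8, 7 and 9 counts against 25, 20 and 21 (1.55). That gene met the filter only through siTRIM28. Whether the authors' counting used strand is not given in the sources used here, and some other genes overlapping on opposite strands had nearly equal counts. The reads of ZNF726 and ENSG00000269289 therefore cannot be told apart.

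Smaller rises in cluster 5 came from ZNF257, ZNF100 and ZNF43. ZNF257 (chr19:22052430-22088376) had 45, 49 and 44 counts against 68, 66 and 56 (0.56, SE 0.151, edgeR adjusted p = 0.0103), a call lost with DESeq2 (adjusted p = 0.0554). ZNF100 (chr19:21722771-21767579) had 59, 64 and 53 against 71, 79 and 79, a log2 fold change of 0.49. ZNF43 (chr19:21804946-21852028) had 62, 60 and 59 against 76, 80 and 74, a log2 fold change of 0.45. For these 3 KRAB zinc finger genes the groups did not overlap in CPM. The adjusted p of ZNF100 was 0.0253 and that of ZNF43 0.0242 by edgeR, and each lost its call in 6 of 15 alternatives, the largest adjusted p on leaving out 1 library being 0.0929 and 0.0923. ZNF66 (12, 15 and 16 counts against 23, 27 and 21, 0.82) and ZNF90 (65, 61 and 81 against 87, 97 and 96, 0.54) also rose, on low or overlapping values. ZNF90 overlaps ENSG00000267383 on the opposite strand, which rose too (0.74), and it lost its call with the close pairs summed (adjusted p = 0.153) and without siNC 1, siNC 2, siTRIM28 2 or siTRIM28 3. ZNF66 lost its call with DESeq2 (adjusted p = 0.105), with the close pairs summed (0.0811) and without siNC 1, siNC 2 or siTRIM28 2.

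**Figure D4:**
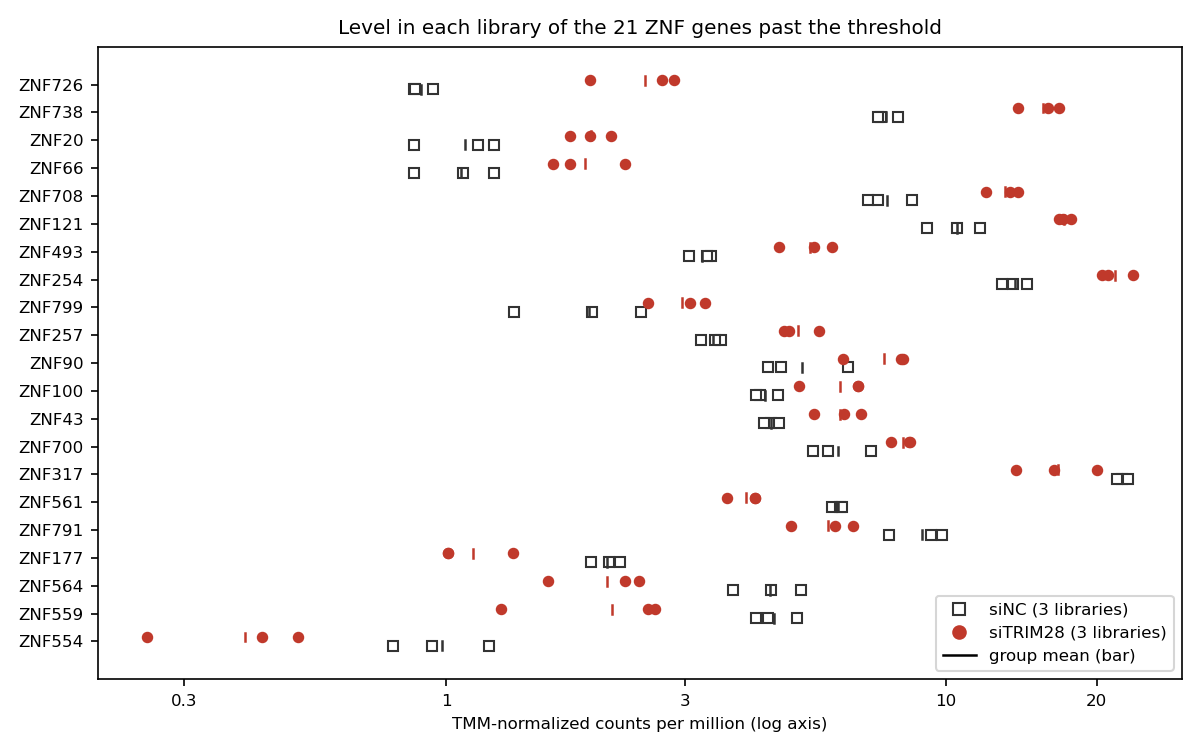
TMM-normalized CPM on a log axis (x axis) of the 21 ZNF genes past the threshold (y axis, ordered by log2 fold change) in the 3 siNC libraries (open squares) and the 3 siTRIM28 libraries (filled circles), with the group mean as a short bar. Values run from 0.253 CPM (ZNF554 in siTRIM28 3) to 23.6 CPM (ZNF254 in siTRIM28 3), and the groups overlap only for ZNF90.

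Some genes of cluster 5 named for known roles were not past the threshold. ZNF91, known for binding SVA elements, had 175, 173 and 176 counts in siNC and 194, 175 and 162 in siTRIM28, or 13 ± 0.724 and 14.1 ± 0.59 CPM (0.12, SE 0.079, edgeR adjusted p = 0.266). ZNF93, known for binding LINE-1 elements, had 54, 55 and 64 against 53, 54 and 48 (-0.05, SE 0.165, edgeR adjusted p = 0.819). ZNF675, reported to bind the signalling protein TRAF6, had 116, 96 and 106 against 107, 99 and 114 (0.12, SE 0.127). ZNF714, in which no KRAB pattern was found, was named only for a fold change near 0. It had 127, 139 and 142 against 151, 124 and 129 (0.09, SE 0.0985). For all 4 the groups overlapped, and at 13 CPM ZNF91 was measured nearly as deeply as ZNF254 (SE 0.079 and 0.0794). The longest run of tested neighbours with a fold change above 0 was 11 genes, from ZNF100 to ZNF254, and included ZNF91 and ZNF675.

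Cluster 2 held the ZNF genes of highest siNC level per length among the 83 and most of those that fell. ZNF317 (ENSG00000130803, chr19:9140397-9163424), a KRAB gene with the highest siNC level per length of all 83 (4.47 ± 0.116 CPM per kb), had 313, 304 and 295 counts in siNC and 193, 237 and 194 in siTRIM28. It fell from 22.5 ± 0.586 to 16.7 ± 3.13 CPM (-0.44, SE 0.109, edgeR adjusted p = 0.00691). ZNF358, second in level per length (3.80 CPM per kb) and without a KRAB pattern, had 98, 115 and 107 counts against 90, 85 and 69 and did not pass (-0.29, SE 0.13, edgeR adjusted p = 0.0974). ZNF414, also without one, had 39, 52 and 37 against 70, 28 and 33, with siTRIM28 1 far above the other two libraries (0.13, SE 0.266).

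ZNF121 (ENSG00000197961, chr19:9560329-9584504), a 9-finger gene without a KRAB pattern whose protein is reported to bind MYC, was the only gene of cluster 2 called higher in the edgeR fit. It had 163, 127 and 134 counts in siNC and 235, 211 and 202 in siTRIM28, a rise from 10.5 ± 1.28 to 17.2 ± 0.537 CPM (0.72, SE 0.0927, edgeR adjusted p = 7.98e-05). Its neighbour ZNF561 (ENSG00000171469, chr19:9604680-9621234), a KRAB gene, had 82, 85 and 79 against 51, 49 and 49 and fell from 6.08 ± 0.154 to 3.97 ± 0.286 CPM (-0.62, SE 0.139, edgeR adjusted p = 0.0038). Neither pair of groups overlapped, and these neighbours with similar promoters moved in opposite directions. The next gene, ZNF562, had 138, 124 and 111 against 145, 108 and 98, near no change (0.01, SE 0.113). ZNF561 and ZNF562 both overlap ZNF561-AS1 on the opposite strand, which did not pass (-0.03, edgeR adjusted p = 0.875).

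ZNF559 (ENSG00000188321, chr19:9323772-9351162) and ZNF177 (ENSG00000188629, chr19:9363013-9382617) are adjacent KRAB genes joined by an annotated readthrough gene, ZNF559-ZNF177. ZNF559 had 70, 61 and 53 counts in siNC and 18, 30 and 31 in siTRIM28 (-1.11, SE 0.233, edgeR adjusted p = 0.00249). ZNF177 had 31, 27 and 27 against 19, 12 and 12 (-0.88, SE 0.233, edgeR adjusted p = 0.01), and the readthrough had 69, 71 and 62 against 33, 29 and 32 (-1.0, SE 0.156, edgeR adjusted p = 0.000329). All 3 separated the groups. The readthrough lies over both on the same strand, so reads may be shared and these are not independent falls, and ZNF177 lost its call with DESeq2 (adjusted p = 0.0599). ZNF266, which follows ZNF177 on the arm, had 79, 77 and 65 against 40, 59 and 68, with overlapping groups (-0.29, SE 0.215).

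Cluster 3 was mixed. ZNF700 (chr19:11925068-11950763), its gene of highest level per length (1.84 CPM per kb), had 98, 75 and 74 counts in siNC and 118, 100 and 92 in siTRIM28 (0.43, SE 0.131, edgeR adjusted p = 0.0203). It lost its call with DESeq2 (adjusted p = 0.07) and without siNC 2, siNC 3 or siTRIM28 2. ZNF20 had 12, 16 and 16 against 30, 23 and 21 (0.85, SE 0.242), almost the same counts as the readthrough ZNF625-ZNF20 on its strand (13, 16 and 15 against 30, 23 and 21). ZNF799 had 34, 19 and 25 against 43, 30 and 39 (0.62, edgeR adjusted p = 0.0489). ENSG00000268744, lying over ZNF799 on its strand, had 19, 10 and 6 against 24, 21 and 14 and did not pass, so reads may be shared. ZNF20 lost its call with DESeq2, with the close pairs summed and without siNC 1, and ZNF799 in 6 of 15 alternatives. All 3 rises of this cluster were weak: with DESeq2 the count was 0 at the adjusted threshold and 2 at an unadjusted p under 0.05, with the close pairs summed it was 1, and without siNC 2 or siNC 3 it was 1. ZNF44, a KRAB gene between them, had 68, 78 and 77 against 82, 64 and 69 (0.05, SE 0.138).

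The falls of cluster 3 lay together at its centromere end. ZNF791 (ENSG00000173875, chr19:12610918-12633840) had 107, 136 and 119 counts in siNC and 84, 77 and 58 in siTRIM28 and fell from 8.95 ± 1.11 to 5.80 ± 0.821 CPM (-0.62, SE 0.144, edgeR adjusted p = 0.00446). ZNF564 (ENSG00000249709, chr19:12525373-12551467) had 52, 71 and 57 against 34, 27 and 19 (-1.07, SE 0.205, edgeR adjusted p = 0.00138). A gene lying over it on its strand, ENSG00000269693, had 50, 67 and 56 against 31, 27 and 18, close to the counts of ZNF564. ZNF490, which spans ZNF791 on the opposite strand, had 13, 14 and 14 against 3, 9 and 9 and did not pass (-0.85, SE 0.395, edgeR adjusted p = 0.108). In cluster 1, at the telomere end, ZNF554 fell from 17, 13 and 10 counts to 6, 6 and 3 (-1.29, SE 0.368, edgeR adjusted p = 0.0146). ZNF554 met the filter only through the siNC libraries, the group where it was high, so its call is weak support for a fall. Leaving out any siNC library, or asking for 10 counts in every library, took it out of testing. It lost its call with DESeq2 (adjusted p = 0.0832) and without siTRIM28 3 (0.0536). ZNF57, ranked 3 of the 83 in siNC level per length (1.93 CPM per kb), had 56, 48 and 69 against 67, 66 and 46 (0.15, SE 0.197). ENSG00000253392, overlapping it on the opposite strand, had 53, 46 and 63 against 64, 64 and 43, so the level may not be that of ZNF57 alone.

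In coding sequence, the KRAB pattern was in 13 of the 14 that rose, 7 of the 7 that fell and 38 of the 43 that did not pass. The median number of fingers was 13.5, 9 and 12 in these groups. Of tested genes with 11 fingers or fewer, 5 of 28 rose and 4 fell, and of those with 12 or more, 9 of 36 rose and 3 fell. None of these differences was tested.

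The other 19 genes were under the filter, 10 of them in cluster 5 and 7 in cluster 3. Their highest count in any library was 15, and 3 counts corresponded to 0.214 to 0.253 CPM. ZNF723 and ZNF728 had 0 counts in all libraries, which allows a level of up to 0.253 CPM in the shallowest, and 8 genes (those 2 included) had at most 1 count in every library. They include the large cluster 5 genes ZNF208, with 36 fingers, ZNF729 with 34 and ZNF99 with 25. A rise of any of these from 0 to a level under this floor was not detectable at this depth. All such limits cover counting error only.

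The partners through which KRAB zinc finger proteins and TRIM28 act were given by a list of 20 genes, of which 19 were tested and ZFP57 had 0 counts. On this list 4 were higher (21.1%) and 7 lower (36.8%), against 21.3% and 20.5% of all tested genes, with a median of -0.09. The mean count had a median of 1476 on the list, against 136 over all tested genes, a depth at which smaller changes pass. The part of depth in these shares was not tested. With a log2 fold change of at least 0.58 also required, 0 were higher and 0 lower (range -0.45 to 0.42). The histone methyltransferase SETDB1 did not pass (25.1 ± 1.26 and 26.4 ± 1.8 CPM, 0.07, edgeR adjusted p = 0.464), nor did its cofactor ATF7IP (-0.16, edgeR adjusted p = 0.0596) or the HP1 genes CBX5 (0.02) and CBX3 (0.22). The HP1 gene CBX1 was slightly lower (-0.14, edgeR adjusted p = 0.0274). Of the HUSH complex and its partner, TASOR (-0.18) and MORC2 (-0.35, edgeR adjusted p = 0.000494) were lower and MPHOSPH8 (0.01) and PPHLN1 (-0.14) did not pass. The largest fall was that of the chromatin remodeller SMARCAD1 (-0.45, edgeR adjusted p = 0.00279). Genes of the NuRD complex were mixed. CHD3 (-0.28) and HDAC2 (-0.16) were lower, HDAC1 (0.12) was higher and CHD4 (0.09, edgeR adjusted p = 0.0661) did not pass. UHRF1 (0.16), a partner of DNMT1, was higher. ZNF445, a KRAB zinc finger protein that guards imprinted loci, was lower (-0.29, edgeR adjusted p = 0.00568). The maintenance methyltransferase DNMT1, itself on the short arm between clusters 2 and 3, rose from 394 ± 8.75 to 517 ± 20.4 CPM (0.39, SE 0.0409, edgeR adjusted p = 1.57e-05), and TRIM24, a relative of TRIM28, was also higher (0.42, edgeR adjusted p = 0.00106).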

How the data were processed

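Poly(A) RNA of 6 T24 libraries (siNC and siTRIM28, 3 each) was sequenced from a stranded kit. Per the submitters' processing notes, the authors used fastp 0.23.1, STAR 2.7.6a and featureCounts on GRCh38 and deposited raw read counts per gene. Counting options (strand, multiple hits, duplicate or molecular tag handling) are not given in the sources used here, and reads of related ZNF genes may be split or dropped. LRRC8E had 44, 52 and 40 counts in siNC and 77, 48 and 65 in siTRIM28. ENSG00000214248, overlapping it on the opposite strand, had 43, 51 and 37 against 75, 47 and 63, while ZNF561 and ZNF561-AS1 differed. Reads may have been counted for each overlapping gene whatever the strand, which was not tested. Of the 64 tested ZNF genes 19 overlap another tested gene, among them ZNF358, ZNF700, ZNF799 and ZNF254 on the same strand. A second deposited table, holding normalized values and the authors' own comparison for their differential genes, was not used.

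Groups came from the treatment labels. edgeR 4.0.16 (R 4.3.3) fitted TMM-scaled counts of the genes that reached 10 counts in 3 or more libraries, with condition as the only term, and p-values were adjusted by Benjamini-Hochberg. Each SE was obtained from the fold change and the F statistic (absolute log2 value over root F). The study's methods name no test for these counts. Alternatives used DESeq2 1.42.0 and limma 3.58.1 among others. The fits were tested on simulated data. An exact two-sided permutation test of 3 against 3 cannot give p under 0.1, the value that TRIM28 and each of the 14 ZNF genes tried gave. Replicates are biological by label, and p-values measure the spread between these libraries. Same-numbered libraries did not pair (correlations of deviations 0.05, -0.01 and 0.04).

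The genes, lists and tests were chosen with earlier results of these data known. Genes were named by rule: the 10 largest rises and 10 largest falls past the threshold with a mean of at least 50 counts and groups that do not overlap, the 3 of highest siNC level per length, the 3 nearest 0 with a mean of at least 100 counts, the highest of each cluster, and 12 picked for known roles or lack of a KRAB box. ZNF554, ZNF20, ZNF799, ZNF564, ZNF90, ZNF66 and ZNF726, called but outside the rule, and ZNF429, ZNF490, ZNF737, ZNF85, the untested, overlapping and partner genes given beside results, were named after their values were seen. KRAB boxes and fingers were to be read from RefSeq proteins and were read by pattern from GENCODE release 29 coding sequences instead.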

Additional observations from a re-analysis of the deposited data

How the results depend on the processing

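Of the 21 ZNF genes called, 11 passed the threshold under every alternative fit run for them (ZNF317, ZNF559, ZNF121, ZNF561, ZNF791, ZNF708, ZNF738, ZNF493, ZNF254, ZNF564 and ZNF726), and none of the 21 changed sign. The stricter limits of 0.01 and 0.58 given next are not among these fits, and ZNF317 (-0.44) does not reach 0.58. The count of higher genes, 14, was 7 with DESeq2, 8 with the close pairs summed, 6 at an adjusted p under 0.01, 9 with the log2 fold limit of 0.58 and 9 to 15 on leaving out 1 library. For cluster 5 the count of 10 was 6, 6, 5 and 6 under the same settings and 6 to 11 on leaving out 1 library, and for cluster 3 the count of 3 was 0 with DESeq2, 1 with the pairs summed, 0 at 0.01 and 1 to 3 on leaving out 1. The count of lower genes was 6 to 7 on leaving out 1 library, and ZNF554 was not tested where a siNC library was left out. The median log2 fold change of 0.12 was 0.08 with the pairs summed, 0.16 with upper-quartile scaling and 0.09 to 0.15 on leaving out 1 library. All genes called numbered 7723, or 3144 with the fold limit. DESeq2 called 2884 genes higher and 2994 lower. With upper-quartile scaling 56.6% of calls were higher, against 51.1%, and the median of all genes was 0.049, against 0.015. The cause of these shifts was not tested.

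Genes that were not called crossed 0 on leaving out 1 library: ZNF414 (-0.29 to 0.32), ZNF562 (-0.08 to 0.08), ZNF44 (-0.04 to 0.11), ZNF333 (-0.04 to 0.23) and ZNF93 (-0.14 to 0.07). The replicate numbers are only names, since same-numbered libraries did not deviate together. With the replicate number as a block, 14 ZNF genes were higher and 7 lower and 4030 and 3880 of all genes were called, so the block moved no count by over 1.5 times. Low counts limit fold changes: at a mean of 9.17 counts (ZNF554) the SE was 0.368, and at 228 (ZNF254) it was 0.0794.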

Other observations

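Among other genes tested inside the cluster spans, 8 of 41 were higher and 2 lower in cluster 2 and 3 of 21 were higher and 5 lower in cluster 3, where 21.3% of all tested genes were higher and 20.5% lower. The 8 include LRRC8E and ENSG00000214248, which overlap on opposite strands with nearly equal counts and may not be independent. CNN1, among the 5 lower, met the filter only through siNC. In cluster 3 the pseudogene ZNF788P fell from 24, 39 and 37 counts in siNC to 11, 13 and 13 in siTRIM28 (log2 fold change -1.32, SE 0.284, edgeR adjusted p = 0.00284), and ENSG00000286132, which overlaps it on the same strand, had 71, 100 and 102 against 37, 45 and 40 (-1.06, SE 0.203, edgeR adjusted p = 0.00139). On the opposite strand of ZNF433, ZNF433-AS1 had 80, 78 and 63 counts against 129, 88 and 104 and rose (0.64, SE 0.132, edgeR adjusted p = 0.00224), while ZNF433 had 23, 21 and 25 against 18, 16 and 21 and did not pass (-0.22, SE 0.24). Groups did not overlap for the first 3. In cluster 2, ANGPTL4, which encodes a secreted inhibitor of lipoprotein lipase, rose from 79, 72 and 68 counts to 238, 195 and 190 (1.61, SE 0.0911, edgeR adjusted p = 1.24e-07). These genes were named after their values were seen.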
